A study of Rattus norvegicus with 8 samples.

Results

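The genes described here are 34 genes of cholesterol and fatty acid synthesis in the rat, named by symbol: the enzymes that lead from acetyl-CoA to cholesterol, the proteins that control them, and the enzymes that make, lengthen and desaturate fatty acids. Array probes were matched to them through the RefSeq transcript that each probe targets, and only probes well above background on 3 or more arrays, or on the array of cultured cells, were used. Of the 34, 33 had such a probe, among 21309 genes in all. Srebf1 had no matched probe and was not analysed here. A total of 43 probes matched, 25 genes having 1 probe and 8 several, and the probe with the highest mean level stood for each gene. On all 8 arrays, 29 of the 33 genes were well above background.

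RNA was profiled on 8 single-colour Agilent rat arrays from adipose-tissue-derived mesenchymal stem cells (ATSC), stromal cells that had been freed with collagenase from subcutaneous fat of male Sprague-Dawley rats and cultured in medium with serum. The samples fall into 3 groups: ATSC on liver that had undergone ischemia-reperfusion injury (IRI, blood flow stopped and then restored; 3 arrays), ATSC on liver without that injury (non-IRI, 4 arrays), and the same kind of cells in culture alone (in vitro, 1 array). The labels do not give the age of the animals, the time on the liver, the way in which cells were placed on or recovered from it, or whether replicates came from separate animals, so each p-value measures the spread between these samples. No sort of the cells is named, so the signal of the 7 liver arrays may hold RNA of other cells as well as ATSC.

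Between 53.5% and 59.7% of the spots of an array were well above background, and no non-control spot was saturated. Levels are log2 signals relative to the 75th percentile of the array, and are listed in the order of the replicate numbers. Per the file headers, the IRI and in vitro arrays share 1 scan time and the non-IRI arrays another, so IRI against non-IRI cannot be told apart from scan time, and neither can non-IRI against in vitro. IRI against in vitro lies within 1 scan time. The labelled cell type was checked against mesenchymal stromal markers: 16 of 17 were measured, and each was well above background on at least 1 array of every group. Their summed level was 2577 to 3574 times the 75th percentile in IRI, 2615 to 3112 in non-IRI and 3539 in vitro. Signal of other cells lay beside it on the liver arrays. Of 14 measured macrophage and Kupffer cell markers, 11 were not well above background in vitro, and the summed level of the 14 was 1005 to 1179 in IRI, 936 to 1464 in non-IRI and 4.49 in vitro. The summed level of 19 hepatocyte markers was 106 to 115 in IRI, 44.0 to 108 in non-IRI and 2.60 in vitro. A sum is led by the brightest markers. The mean log2 level of the 19 was 0.13 to 0.59 in IRI, -3.07 to -1.60 in non-IRI and -3.63 in vitro.

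Animal cells build cholesterol from acetyl-CoA through mevalonate, farnesyl diphosphate, squalene and lanosterol, and build fatty acids from the same acetyl-CoA. Both pathways are transcribed under the sterol regulatory element-binding proteins (SREBPs), which the chaperone Scap carries from the endoplasmic reticulum to the Golgi for cleavage when sterols run low and which the Insig proteins hold back when sterols are plentiful. The liver is a main site of both pathways, and cultured cells use them for membrane growth.

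In promoters of genes of this kind, SREBPs are known to act together with the CCAAT-binding factor NF-Y. RefSeq promoters of the rat build GRCr8, from 250 bases before to 50 bases after the annotated start, were matched for 26 of the 33 measured genes. CCAAT, searched on both strands, was present in 20 of the 26 (76.9%), in 37.5% of all 33469 promoters of the table and in 37.9% of the 8273 that belong to genes tested on the arrays. At least 2 copies were present in 11 of the 26 (42.3%), in 11.2% of all promoters and in 13.4% of those of genes tested. CCAAT was present in 16 of the 22 genes that fell against culture in both liver groups, and in 4 of the 4 that did not. The GC box GGGCGG was present in 20 of 26, against 33.1% of all promoters and 60.4% of those of genes tested. The E-box CANNTG was present in 16 of 26 (61.5%), against 72.1% and 63.2%. The sterol regulatory element core TCACNCCAC was in none of the 26, against 1.12% and 1.08%. These matches describe letters in a window and are not binding sites, and variants of a motif were not searched. Promoters are shown for the genes with the most CCAAT copies (Nsdhl and Mvk, 5 each), for the sterol enzyme that fell most (Tm7sf2, 2 copies) and for the fatty acid enzyme that fell most (Scd, no copy). Capitals mark CCAAT or its reverse complement ATTGG. The Nsdhl sequence is at chrX:155817110-155817409 on the plus strand, and 1 of its copies overlaps an E-box. Mvk is at chr12:47819454-47819753, Tm7sf2 at chr1:212789492-212789791 and Scd at chr1:253231682-253231981, all on the minus strand.
Nsdhl: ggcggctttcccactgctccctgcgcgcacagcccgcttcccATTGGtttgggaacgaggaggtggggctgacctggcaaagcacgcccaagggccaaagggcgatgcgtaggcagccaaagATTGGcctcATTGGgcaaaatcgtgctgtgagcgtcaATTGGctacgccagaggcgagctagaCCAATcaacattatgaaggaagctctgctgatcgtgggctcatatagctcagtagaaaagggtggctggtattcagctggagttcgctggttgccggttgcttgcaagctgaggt
Mvk: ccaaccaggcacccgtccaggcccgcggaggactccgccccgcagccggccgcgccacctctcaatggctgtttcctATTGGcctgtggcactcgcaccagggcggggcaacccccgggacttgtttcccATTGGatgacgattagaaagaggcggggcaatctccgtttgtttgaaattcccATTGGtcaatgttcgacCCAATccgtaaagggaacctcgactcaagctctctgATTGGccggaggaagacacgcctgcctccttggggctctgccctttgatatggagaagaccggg
Tm7sf2: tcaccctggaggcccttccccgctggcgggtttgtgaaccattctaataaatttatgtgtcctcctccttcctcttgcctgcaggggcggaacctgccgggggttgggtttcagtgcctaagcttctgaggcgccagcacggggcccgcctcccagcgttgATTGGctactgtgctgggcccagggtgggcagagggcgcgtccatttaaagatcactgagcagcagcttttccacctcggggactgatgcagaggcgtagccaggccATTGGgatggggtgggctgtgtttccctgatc
Scd: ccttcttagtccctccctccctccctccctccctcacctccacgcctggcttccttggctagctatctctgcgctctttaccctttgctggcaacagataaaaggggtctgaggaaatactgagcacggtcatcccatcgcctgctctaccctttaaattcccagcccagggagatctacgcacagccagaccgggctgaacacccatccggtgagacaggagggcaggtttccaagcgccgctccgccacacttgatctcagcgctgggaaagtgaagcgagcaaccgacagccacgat

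The first comparison asks how ATSC on liver differ from cultured ATSC. Most of the synthesis genes were far lower on the liver arrays than in culture. In IRI, 28 of the 33 fell and none rose against in vitro at an adjusted p under 0.05 (limma, Benjamini-Hochberg over all genes), where 15.1% of 21298 genes tested fell and 14.2% rose, 29.2% in all. In non-IRI, 28 fell and 1, Ggps1, rose, where 17.8% of genes tested fell and 16.8% rose, 34.6% in all. The median log2 difference over the 33 genes was -2.62 in IRI and -2.56 in non-IRI, and over all genes tested it was -0.28 and -0.24. Every IRI array was below the in vitro array for 30 of the 33 genes, against 49.6% of all genes tested, and every non-IRI array for 31, against 46.1%. Every array of either liver group was above it for 2, Ggps1 and Insig2, against 30.2% of all genes in IRI and 30.3% in non-IRI. Both comparisons use the same single in vitro array, whose spread the fit took from the liver arrays, so they are not independent of each other.

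The mean log2 level of the 33 genes was 0.68, 0.91 and 0.65 in IRI, 0.63, 0.69, 0.93 and 0.53 in non-IRI and 3.15 in vitro. The 18 enzymes of sterol and isoprenoid synthesis alone had means of 1.16, 1.42 and 1.12 in IRI, 1.25, 1.30, 1.50 and 1.04 in non-IRI and 4.04 in vitro. All 7 liver arrays lay close together and well under the cultured cells, as the plot of levels by array shows gene by gene. Within each liver group 1 array was often the highest or the lowest: IRI 2 was the highest IRI array for 18 of the 33 genes (28.6% of all genes), non-IRI 3 the highest non-IRI array for 21 (29.7% of all genes), and non-IRI 4 the lowest for 16 (25.7%).

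**Figure D1:**
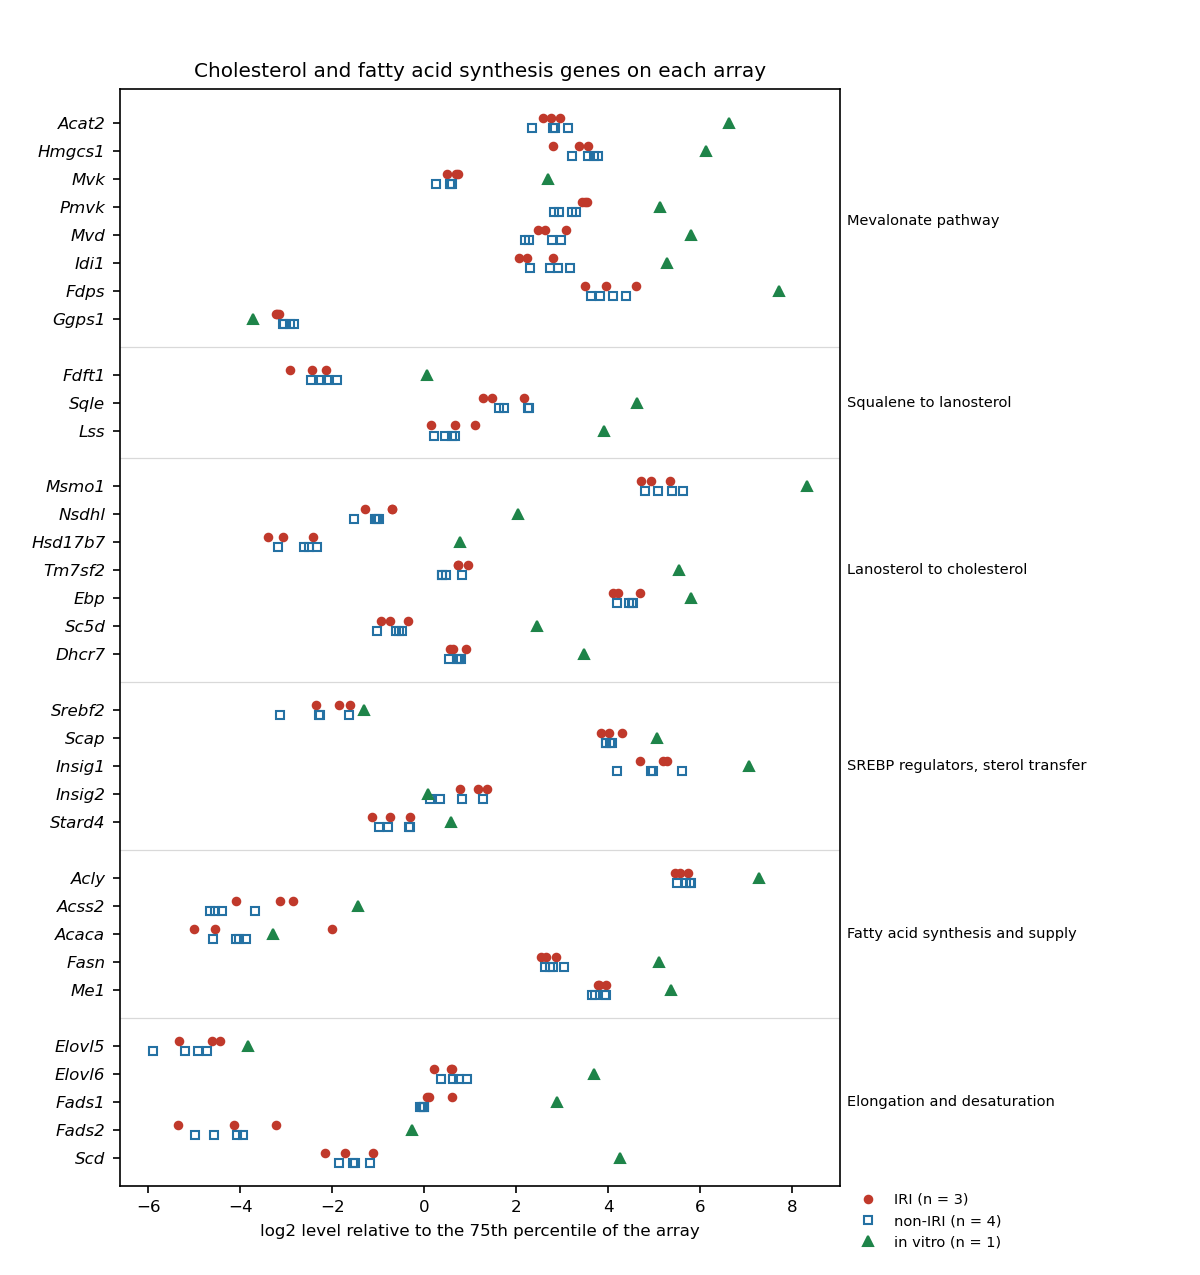
Log2 level of each synthesis gene relative to the 75th percentile of the array, on 3 IRI arrays (circles), 4 non-IRI arrays (squares) and 1 in vitro array (triangles), with genes ordered by step; near-equal values overlap. For most genes the in vitro triangle lies to the right of all 7 liver arrays, for Ggps1 and Insig2 it lies to the left, and for Acaca it lies among the IRI arrays.

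The mevalonate pathway condenses acetyl-CoA units and ends in farnesyl and geranylgeranyl diphosphate. Of its 8 enzymes, 7 fell in both liver groups, with a median log2 difference over the 8 of -2.89 in IRI and -2.53 in non-IRI. Acat2, the cytosolic thiolase that starts the pathway, had log2 levels of 2.75, 2.95 and 2.59 in IRI, 2.80, 2.84, 3.13 and 2.34 in non-IRI and 6.64 in vitro. Fdps, which makes farnesyl diphosphate, had levels of 3.50, 4.61 and 3.96 in IRI, 3.83, 4.11, 4.38 and 3.64 in non-IRI and 7.71 in vitro. In both genes every liver array lay more than 3 log2 units under the in vitro array. Acat2 fell 14.7-fold in IRI and 14.5-fold in non-IRI, with log2 differences of -3.87 ± 0.32 (SE; 3 IRI arrays and 1 in vitro array) and -3.86 ± 0.31 (SE; 4 non-IRI arrays and the same in vitro array). The adjusted p-values were 1.20e-04 and 9.99e-05. Fdps fell 12.9-fold and 13.2-fold (adjusted p = 8.63e-04 and 6.35e-04).

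Hmgcs1, which makes HMG-CoA in the cytosol, had levels of 3.37, 3.57 and 2.80 in IRI, 3.55, 3.77, 3.70 and 3.22 in non-IRI and 6.12 in vitro. Mvd, the decarboxylase that yields isopentenyl diphosphate, had levels of 3.08, 2.63 and 2.49 in IRI, 2.78, 2.27, 2.98 and 2.19 in non-IRI and 5.81 in vitro. Idi1, which isomerizes that product, had levels of 2.25, 2.80 and 2.07 in IRI, 2.73, 2.91, 3.17 and 2.31 in non-IRI and 5.28 in vitro. These enzymes too showed no overlap between liver and culture, and their log2 differences lay between -3.07 and -2.88 in IRI and between -3.25 and -2.50 in non-IRI. The kinases Mvk and Pmvk, which phosphorylate mevalonate in sequence, fell least of the 7. Mvk had levels of 0.73, 0.70 and 0.49 in IRI, 0.60, 0.25, 0.57 and 0.59 in non-IRI and 2.69 in vitro, and Pmvk of 3.53, 3.44 and 3.50 in IRI, 3.31, 2.82, 3.23 and 2.93 in non-IRI and 5.14 in vitro. Their differences were -2.06 and -1.65 in IRI and -2.19 and -2.06 in non-IRI. The other probe of Hmgcs1 gave smaller falls, -1.79 in IRI and -1.44 in non-IRI, against -2.88 and -2.56 for the probe used. The 2 probes thus lay 1.09 log2 units apart in IRI and 1.12 in non-IRI, with the same sign.

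Ggps1, which draws farnesyl diphosphate away from sterols to make geranylgeranyl diphosphate for protein prenylation, went the other way. It read -3.22, -3.21 and -3.16 in IRI, -2.93, -2.84, -3.04 and -3.06 in non-IRI and -3.71 in vitro, so that every liver array was above the cultured cells. The log2 difference was 0.75 ± 0.20 (SE) in non-IRI, a 1.68-fold rise with an adjusted p of 0.0256, and 0.52 ± 0.21 in IRI, which did not pass (adjusted p = 0.103; 95% interval 0.03 to 1.00). The rise in non-IRI was not called with replicate numbers as a block (adjusted p = 0.102), without IRI 3 (0.0519), without non-IRI 1 (0.059) or under 6 other settings given in the closing section.

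Squalene is made by Fdft1, oxidized by Sqle and closed to the ring of lanosterol by Lss. All 3 fell in both liver groups, with a median log2 difference of -2.97 in IRI and -2.65 in non-IRI. Fdft1 had levels of -2.92, -2.14 and -2.44 in IRI, -2.46, -2.11, -1.91 and -2.24 in non-IRI and 0.06 in vitro. Sqle, a rate-controlling step, had levels of 1.28, 2.18 and 1.48 in IRI, 1.62, 2.26, 2.28 and 1.73 in non-IRI and 4.62 in vitro. Lss had levels of 1.10, 0.14 and 0.67 in IRI, 0.22, 0.44, 0.60 and 0.66 in non-IRI and 3.92 in vitro. No liver array overlapped the cultured cells for any of the 3. Lss fell most, 9.71-fold in IRI and 10.8-fold in non-IRI (adjusted p = 6.02e-04 and 3.69e-04), then Sqle (7.86- and 6.26-fold) and Fdft1 (5.87- and 4.7-fold).

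From lanosterol on, methyl groups are removed and double bonds moved or reduced. All 7 measured enzymes of these steps fell in both groups, with medians of -3.14 in IRI and -3.12 in non-IRI. Tm7sf2, a sterol reductase that acts on the double bond left by removal of the first methyl group, fell most of the sterol enzymes. Its levels were 0.73, 0.96 and 0.73 in IRI, 0.40, 0.38, 0.81 and 0.46 in non-IRI and 5.53 in vitro. The liver arrays all lay between 0.38 and 0.96, and culture stood 26.5-fold above IRI and 32.5-fold above non-IRI. The log2 differences of -4.73 ± 0.26 and -5.02 ± 0.25 (SE) had adjusted p-values of 1.13e-05 and 7.22e-06, and ranked 21 and 17 from the lowest of all 21298 genes tested. Its promoter, printed above, holds 2 CCAAT copies.

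The enzymes of methyl removal fell as well. Msmo1, the methyl sterol oxidase, had levels of 4.94, 5.35 and 4.71 in IRI, 5.08, 5.38, 5.63 and 4.80 in non-IRI and 8.33 in vitro. Nsdhl, the dehydrogenase that follows it, had levels of -1.29, -0.71 and -0.69 in IRI, -1.06, -1.02, -0.98 and -1.53 in non-IRI and 2.04 in vitro. Hsd17b7, the keto-sterol reductase that completes the cycle, had levels of -3.40, -2.42 and -3.08 in IRI, -2.62, -2.51, -2.32 and -3.18 in non-IRI and 0.79 in vitro. Each stood clear of the cultured cells on all 7 liver arrays, and the falls were 10.1-, 7.63- and 13.5-fold in IRI and 8.63-, 9.09- and 10.9-fold in non-IRI. The last steps are carried out by Ebp, which shifts a double bond, by the desaturase Sc5d and by the reductase Dhcr7.

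Sc5d had levels of -0.95, -0.35 and -0.75 in IRI, -0.61, -0.49, -0.54 and -1.02 in non-IRI and 2.45 in vitro. Dhcr7 had levels of 0.63, 0.92 and 0.55 in IRI, 0.76, 0.54, 0.79 and 0.71 in non-IRI and 3.47 in vitro. Their log2 differences were -3.14 and -2.77 in IRI and -3.12 and -2.77 in non-IRI, again without overlap. Ebp had levels of 4.70, 4.11 and 4.22 in IRI, 4.53, 4.45, 4.55 and 4.20 in non-IRI and 5.80 in vitro, and fell the least of the 7, 2.75-fold and 2.58-fold (adjusted p = 0.00889 and 0.00877). With replicate numbers as a block, Ebp missed the threshold narrowly in IRI (adjusted p = 0.0501) and in non-IRI (0.0626).

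**Figure D2:**
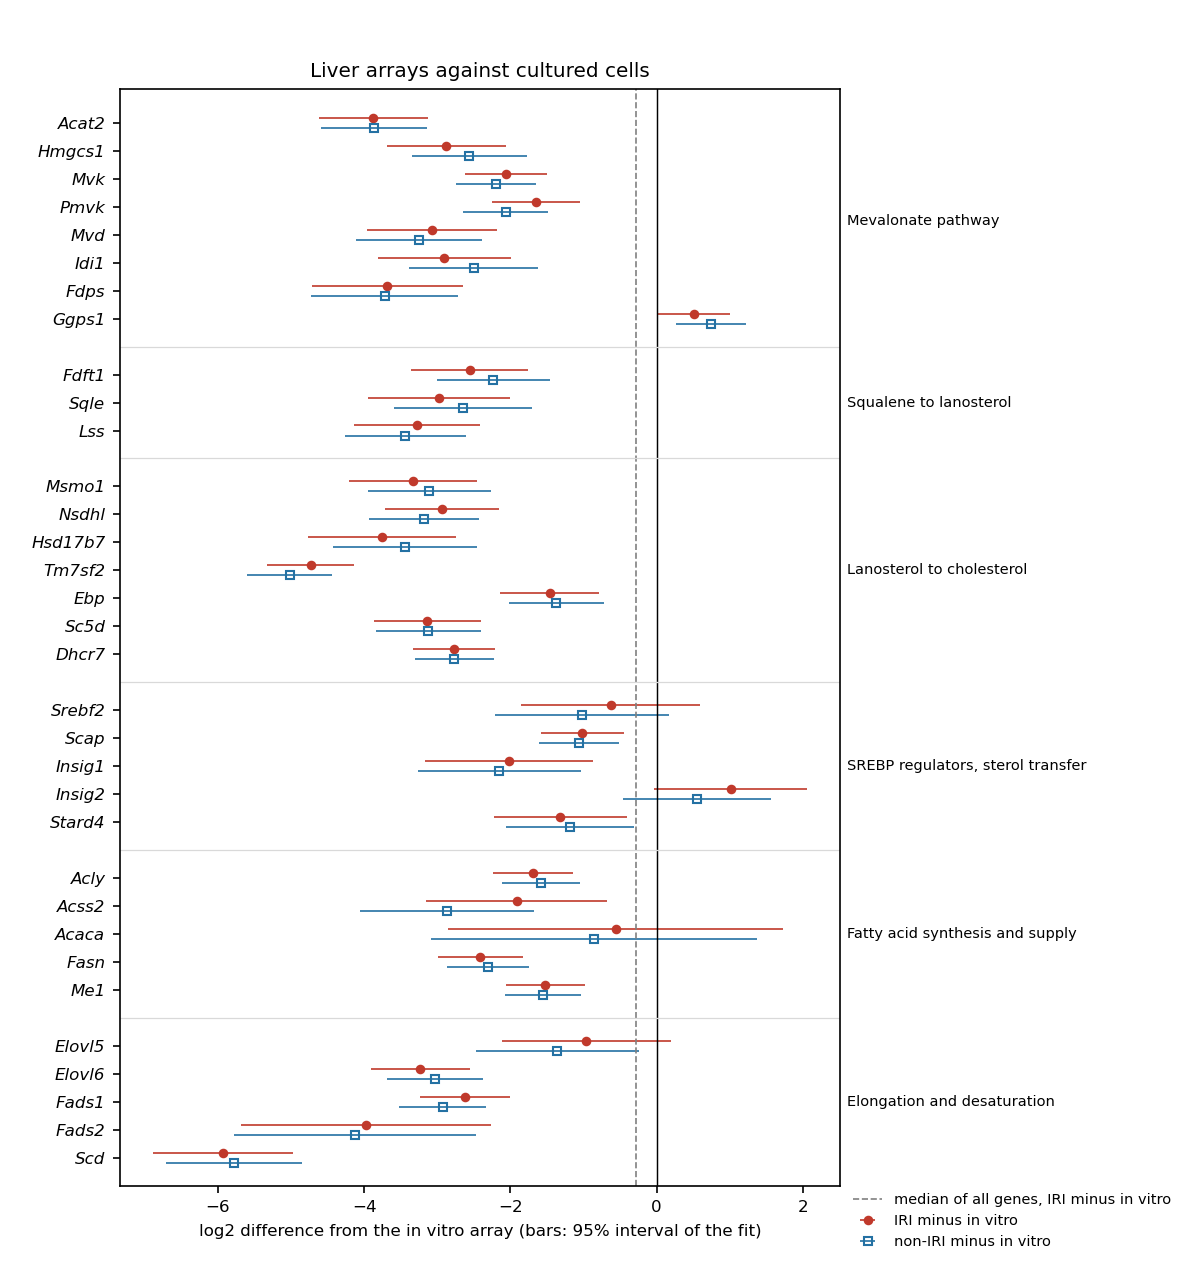
Log2 difference of IRI (circles) and non-IRI (squares) from the in vitro array for each synthesis gene, with the 95% interval of the fit as a bar; the dashed line marks the median of all genes in IRI, -0.28. The sterol enzymes from Acat2 to Dhcr7 lie between -5.02 and -1.37, apart from Ggps1, and the lowest point of all is Scd.

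Of 5 measured genes of SREBP control and sterol transfer, 3 fell in both groups, with a median log2 difference of -1.02 in IRI and -1.06 in non-IRI. Insig1, itself an SREBP target that retains Scap, had levels of 4.69, 5.29 and 5.20 in IRI, 4.97, 4.92, 5.61 and 4.20 in non-IRI and 7.07 in vitro. It fell 4.04-fold in IRI and 4.44-fold in non-IRI (adjusted p = 0.0201 and 0.0119), and its 4 probes gave differences within 0.23 log2 units of each other in IRI and 0.41 in non-IRI. Its relative Insig2, which is transcribed independently of SREBPs, had levels of 0.78, 1.18 and 1.37 in IRI, 0.14, 1.28, 0.33 and 0.82 in non-IRI and 0.09 in vitro. All liver arrays of Insig2 were above the cultured cells, but non-IRI 1 by only a small margin, and neither difference passed: 1.01 ± 0.45 in IRI (SE; adjusted p = 0.127) and 0.55 ± 0.44 in non-IRI (adjusted p = 0.357).

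Scap had levels of 4.30, 3.85 and 4.02 in IRI, 3.95, 4.10, 3.94 and 4.04 in non-IRI and 5.07 in vitro, about 2.02-fold lower in IRI and 2.09-fold lower in non-IRI than in culture (adjusted p = 0.0187 and 0.0118). Stard4, which transfers cholesterol between membranes, had levels of -1.14, -0.32 and -0.74 in IRI, -0.98, -0.30, -0.34 and -0.78 in non-IRI and 0.58 in vitro. Its falls of 2.49-fold and 2.27-fold were close to the threshold (adjusted p = 0.0391 and 0.0444). Both depended on single arrays or settings. In IRI, Scap was lost without IRI 3 (adjusted p = 0.0554), and with the replicate block it was lost in IRI (0.105) and non-IRI (0.0852). Stard4 was lost in IRI without IRI 1 (0.0641), without IRI 3 (0.0858) or without non-IRI 4 (0.0559), and in non-IRI without IRI 3 (0.0706), non-IRI 1 (0.0763) or non-IRI 4 (0.0813).

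Srebf2, the SREBP that chiefly drives the sterol enzymes, did not pass in either group. The mean level was -1.94 in IRI, -2.33 in non-IRI and -1.31 in vitro, and every liver array was below the cultured cells. The 95% interval of the difference ran from -1.85 to 0.60 in IRI and from -2.21 to 0.17 in non-IRI, so the data do not separate no change from a fall of the size seen in Scap. Scaled on the array median, Srebf2 passed in non-IRI, with a log2 difference of -1.32 (adjusted p = 0.038). Its 2 probes differed by 1.46 log2 units in the IRI difference and by 0.89 in the non-IRI difference, both of them negative.

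For fatty acids, acetyl-CoA is supplied by Acly from citrate and by Acss2 from acetate, Acaca makes malonyl-CoA, Fasn builds the chain, and Me1 provides NADPH. Of these 5, 4 fell in both groups, with medians of -1.69 in IRI and -1.58 in non-IRI. Fasn had levels of 2.87, 2.65 and 2.55 in IRI, 2.73, 2.80, 3.04 and 2.63 in non-IRI and 5.10 in vitro. Acly had levels of 5.74, 5.56 and 5.46 in IRI, 5.69, 5.78, 5.80 and 5.50 in non-IRI and 7.28 in vitro. Me1 had levels of 3.79, 3.94 and 3.79 in IRI, 3.92, 3.95, 3.64 and 3.72 in non-IRI and 5.36 in vitro. The liver arrays of each were tightly grouped below the cultured cells, and Fasn fell 5.33- and 4.94-fold (adjusted p = 3.85e-04 and 3.89e-04), Acly 3.23- and 2.99-fold and Me1 2.87- and 2.94-fold.

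Acss2 had levels of -4.09, -3.13 and -2.86 in IRI, -4.66, -4.55, -3.67 and -4.39 in non-IRI and -1.45 in vitro. It was well above background on 2 of 3 IRI arrays and 3 of 4 non-IRI arrays, and fell 3.77-fold in IRI (adjusted p = 0.0311) and 7.31-fold in non-IRI (adjusted p = 0.00492). Without IRI 2 the IRI value was -2.03 and its adjusted p 0.05001, just past the threshold. Acaca, the rate-limiting carboxylase, did not pass (mean level -3.86 in IRI, -4.15 in non-IRI, -3.30 in vitro). It was the gene with the widest spread, because IRI 1 read -2.01 where IRI 2 and IRI 3 read -5.01 and -4.55. Without IRI 1 the difference from culture was -1.49 in IRI with an adjusted p of 0.0266, against -0.56 with it.

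Elongases and desaturases turn the product of Fasn into longer and unsaturated chains. Of 5 measured, 4 fell in both groups, with medians of -3.23 in IRI and -3.03 in non-IRI. Scd, the stearoyl-CoA desaturase that makes monounsaturated fatty acids, showed the largest fall of all the synthesis genes. Its levels were -1.73, -1.12 and -2.17 in IRI, -1.55, -1.50, -1.18 and -1.85 in non-IRI and 4.26 in vitro. The highest liver array lay more than 5 log2 units below the cultured cells. The differences of -5.93 ± 0.41 and -5.78 ± 0.40 (SE) correspond to falls of 61.1-fold in IRI and 55-fold in non-IRI (adjusted p = 4.64e-05 and 4.24e-05), and were ranks 2 and 4 from the lowest of all 21298 genes tested. The Scd promoter printed above holds no CCAAT.

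Elovl6, which elongates palmitate, had levels of 0.59, 0.60 and 0.21 in IRI, 0.76, 0.63, 0.92 and 0.35 in non-IRI and 3.70 in vitro. Fads1, a desaturase of polyunsaturated fatty acids, had levels of 0.07, 0.62 and 0.11 in IRI, -0.01, -0.09, -0.01 and -0.04 in non-IRI and 2.89 in vitro. Fads2, the desaturase that acts before it, had levels of -5.35, -3.22 and -4.14 in IRI, -4.57, -4.98, -4.06 and -3.95 in non-IRI and -0.27 in vitro. All 3 were below culture on every liver array: Elovl6 by 9.4- and 8.19-fold, Fads1 by 6.16- and 7.61-fold, and Fads2 by 15.7- and 17.4-fold. Fads2 was near background, being well above it on 2 of 3 IRI and 2 of 4 non-IRI arrays, and its adjusted p-values were 0.00643 and 0.0042. Elovl5, which elongates polyunsaturated chains, did not pass (mean level -4.79 in IRI, -5.19 in non-IRI and -3.83 in vitro; adjusted p = 0.18 and 0.0623). It was well above background on 1 IRI array, on no non-IRI array and in vitro. Elovl5 was thus kept through the in vitro array alone, so its lower level on liver is not independent of that filter. With the non-IRI arrays set at their lowest levels well above background, it was 1.76-fold lower there than in culture. This fold makes no allowance for the spread. The interval of the measured log2 difference in non-IRI ran from -2.48 to -0.24. Elovl5 passed in both groups with the replicate block (adjusted p = 0.0223 and 0.0119). In non-IRI it also passed without IRI 1 (0.0495) or without non-IRI 3 (0.0498).

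Normexp background correction, in place of the scanner software's own, left 14 of 28 falls called in IRI and 16 of 28 in non-IRI, all of them among those above, and the median difference of the 33 genes was then -2.17 and -2.37. The share of all genes tested that fell was 0.747% in IRI and 0.948% in non-IRI under it. Pmvk, Idi1, Fdft1, Hsd17b7, Ebp, Scap, Insig1, Stard4, Acly, Acss2, Me1 and Fads2 were no longer called in either group, and Hmgcs1 and Fasn were not in IRI. Among them the log2 differences of Fads2 were -1.62 in IRI and -1.15 in non-IRI, of Hsd17b7 -2.17 and -1.66, of Fdft1 -1.56 and -1.11, and of Acss2 -0.78 and -0.49. Within the first scan time alone, 25 of the 28 IRI falls were called, the others being Acss2, Scap and Stard4. There 11.3% of all genes tested fell. Scaling on the array median moved the median of all genes from -0.28 to -0.58 in IRI and from -0.24 to -0.54 in non-IRI. Under it 28 and 30 synthesis genes fell, where 26% and 28.6% of all genes tested fell.

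Markers of other cells were also read. Of all genes tested, 14.2% rose and 15.1% fell in IRI, and 16.8% rose and 17.8% fell in non-IRI. Against in vitro, 14 of 14 macrophage markers rose in IRI and 13 of 14 in non-IRI, T and NK cell markers 11 of 12 in both, neutrophil markers 5 of 6 in both, and mesothelial markers 5 and 6 of 6. Hepatocyte markers rose for 12 of 19 in IRI, where Cyp2c11 (-2.21) fell, and for 5 of 19 in non-IRI, where Cyp2c11 (-2.89) and Apoh (-1.91) fell. These are, as background, a liver cytochrome and a plasma apolipoprotein. Cyp2c11 was well above background in vitro and on no liver array. It was thus kept through the in vitro array alone, so its lower level on liver is not independent of that filter. Apoh was not well above background on any non-IRI array. Other lists rose in part, adipocyte markers for 3 of 6 in both, erythroid markers for 2 of 4 in both, and endothelial markers for 3 and 4 of 7. Lyz2, C1qa and C1qb, macrophage genes, were among the smallest p-values. Of 16 mesenchymal stromal markers, Itgb1 (-1.42), Thy1 (-2.12) and Vim (-1.03) fell and Eng (2.43) rose in IRI, Itgb1 (-1.38) and Vim (-1.40) fell in non-IRI, and the median of the 16 was -0.32 in IRI and -0.19 in non-IRI. None of 11 measured cell cycle genes passed in either comparison at an adjusted or an unadjusted p under 0.05, and their medians were -0.24 and -0.12. Among 7 housekeeping genes B2m rose (1.06 in IRI and 1.19 in non-IRI) and the other 6 did not pass, with medians of -0.52 and -0.51 over the 7. The counts of stromal and housekeeping genes called lay close to the shares of all genes or below them. Actb, of the cytoskeleton, read 8.64, 8.89 and 8.66 in IRI, 8.88, 8.52, 8.71 and 8.82 in non-IRI and 9.25 in vitro, and Gapdh, of glycolysis, between 6.95 and 7.53 on the liver arrays and 7.89 in vitro. The part of other cells' RNA in the falls of the synthesis genes was not tested, and on these bulk arrays fewer cells of a type and less RNA per cell cannot be told apart.

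Other genes of lipid metabolism, not among the 34, were read from the same fit. Of 60 listed, 48 were measured. Against in vitro, 18 fell and 5 rose in IRI, with a median of -0.63, where 15.1% of all genes tested fell and 14.2% rose. In non-IRI 24 fell and 5 rose, with a median of -0.87, where 17.8% of all genes fell and 16.8% rose. The falls with the smallest p-values lay in the same steps. Fads3, of the desaturase family, changed by -3.20 and -3.48 on the log2 scale, Scd2, a second stearoyl-CoA desaturase, by -2.84 and -2.92, and the elongation reductase Tecr by -2.02 and -2.12. Aacs, which activates acetoacetate for lipid synthesis, changed by -2.96 and -3.15, the lanosterol demethylase Cyp51 by -2.82 and -2.89, and Erg28, a scaffold of sterol demethylation known from yeast, by -2.23 and -2.23. The citrate carrier Slc25a1 changed by -2.05 and -2.60, and Acsl3, which activates fatty acids, by -2.10 and -2.09.

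Among the genes that rose were 2 sterol exporters. Abcg1, a sterol exporter of macrophages and other cells, had levels of 4.92, 4.37 and 5.04 in IRI, 4.96, 4.15, 4.51 and 4.40 in non-IRI and -3.18 in vitro. Its difference of 7.96 ± 0.38 in IRI and 7.68 ± 0.36 in non-IRI (SE; adjusted p = 6.25e-06 and 5.99e-06) was the clearest of the 48. Mylip, a ubiquitin ligase induced by the sterol-sensing LXR receptors, rose by 2.10 and 2.02, and the exporter Abca1 by 2.06 and 1.30, with no value on non-IRI 1. Mlxipl, the carbohydrate response factor ChREBP, was not well above background in vitro. Its in vitro level was therefore set at the lowest level well above background on that array. Against that level, the mean of Mlxipl was 17.7-fold higher in IRI and 8.83-fold higher in non-IRI. These folds make no allowance for the spread. The measured log2 differences were 6.21 ± 1.36 in IRI and 5.21 ± 1.32 in non-IRI (SE), and non-IRI 4 read -3.48.

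**Figure D3:**
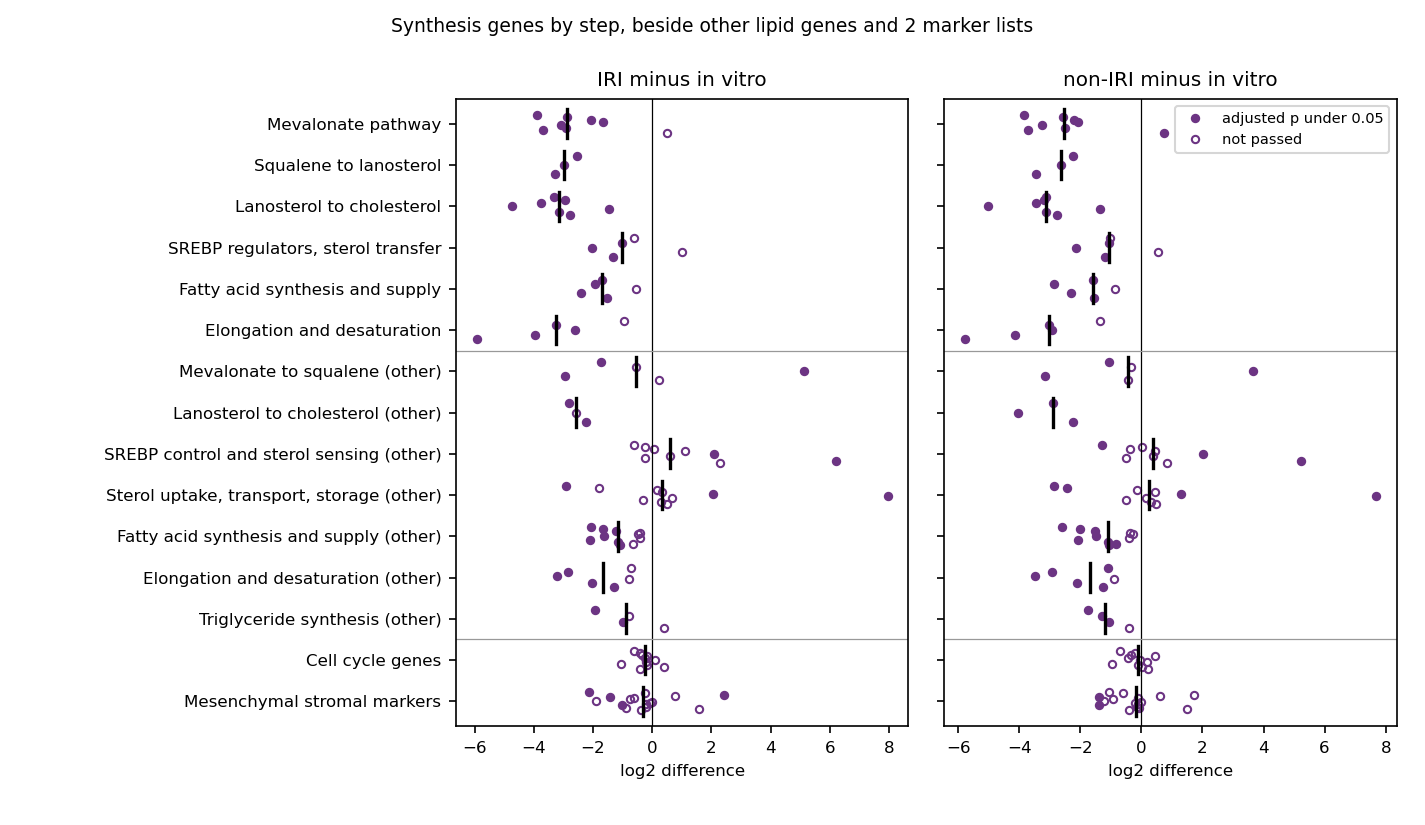
Log2 difference from in vitro for the synthesis genes by step (top), the other lipid genes by list (middle) and 2 marker lists (bottom), in IRI (left) and non-IRI (right); each point is a gene, filled where the adjusted p is under 0.05, and the black bar is the median of the list. The steps of the 33 genes have medians from -3.23 to -1.02, and the cell cycle genes and stromal markers have medians between -0.32 and -0.12.

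The second comparison asks whether injury of the liver changed expression of the synthesis genes. None of the 33 rose and none fell in IRI against non-IRI at an adjusted p under 0.05 (limma), where 0.352% of 21309 genes tested rose and 2.67% fell, 3.02% in all. The smallest adjusted p was 0.256. An unadjusted p under 0.05 was found for 2 of the 33 genes, against 3168 of all 21309, a larger share. The median log2 difference was 0.03, against 0.01 over all genes, with 17 genes higher and 16 lower. A missed threshold does not show equal levels, and the intervals bound the differences: for 26 of the 33 genes the 95% interval lay within 1 log2 unit of 0 on both sides. The same held for 13915 of all 21309 genes. The interval was -0.79 to 0.48 for Scd, -0.10 to 0.69 for Tm7sf2 and -0.85 to 0.22 for Hmgcs1.

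Acss2 and Pmvk were the 2 genes with an unadjusted p under 0.05. Acss2, for which the values are given above, was 0.96 ± 0.35 higher in IRI on the log2 scale (SE; 3 IRI and 4 non-IRI arrays; 95% interval 0.14 to 1.77), but IRI 1 lay within the non-IRI range. For Pmvk the 3 IRI arrays lay between 3.44 and 3.53 and the 4 non-IRI arrays between 2.82 and 3.31, without overlap, and the difference was 0.42 ± 0.17 (95% interval 0.02 to 0.82; adjusted p = 0.314). Every IRI array was above every non-IRI array for Pmvk and Fads1, against 6.34% of all genes, and below for Ggps1, against 9.33%. The Fads1 difference was 0.30 ± 0.18 and that of Ggps1 -0.23 ± 0.14. With estimated array weights Acss2 (1.32, adjusted p = 0.0254) and Insig2 (0.85, adjusted p = 0.048) rose in IRI, where 3.55% of all genes tested rose and 7.77% fell. The medians by step lay between -0.32 for squalene to lanosterol and 0.15 for elongation and desaturation.

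Of the 48 other lipid genes, none rose or fell between the liver groups, with a median of 0.19. Hepatocyte markers did: all 19 had a higher mean in IRI and 11 of them passed, with a median of 2.98 over the 19. All 6 mesothelial markers had a lower mean, and 1 of them, Gpm6a (-1.74), passed. Of all genes tested, 0.352% rose and 2.67% fell. None of the macrophage, neutrophil, T and NK cell, erythroid, endothelial, adipocyte, stromal, cell cycle or housekeeping genes passed. Those lists had medians of 0.40, 1.99, 0.29, 2.96, -0.75, 0.58, 0.01, -0.06 and 0.00 in that order. The part of hepatocyte RNA in the synthesis genes' levels was not tested.

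**Figure D4:**
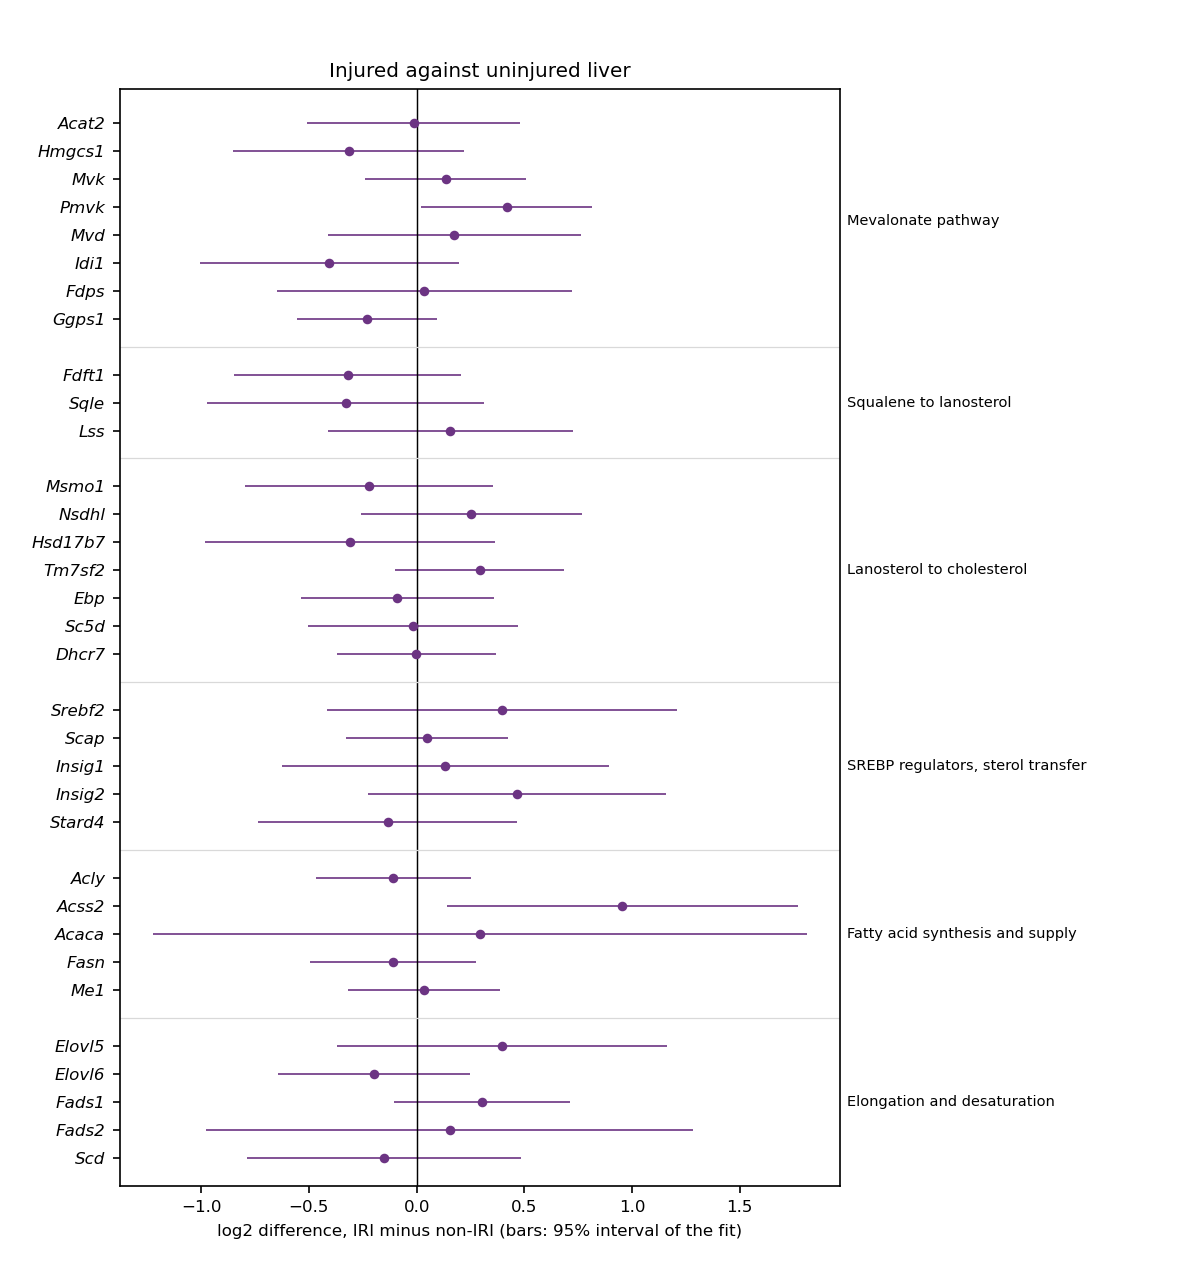
Log2 difference of IRI (n = 3) minus non-IRI (n = 4) for each synthesis gene, with the 95% interval of the fit as a bar. The intervals of Acss2 and Pmvk alone lie wholly to one side of 0, and no gene passed an adjusted p under 0.05.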

How the data were processed

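Single-colour (Cy3) arrays were made from 0.5 µg of total RNA, per the labels. In the deposited scanner files each spot has an intensity, background-subtracted and detrended by Feature Extraction 11.0.1.1 per the file headers, while version 9.1 is named per the submitters' processing notes. The authors' deposited value table is in log2 units. Set against the scanner values, it was scaled to the 75th percentile of each array and centred on each probe's median, with r of 0.9997 or more across probes, so that its direction is that of the signal. Its column medians were 0.18, -0.07 and -0.05 for IRI 1 to 3, 0.09, -0.15, -0.02 and -0.02 for non-IRI 1 to 4 and 0.16 in vitro.

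From the scanner intensity, log2 of the processed signal minus the array's 75th percentile over 43379 non-control spots was computed. Outlier spots (45 to 117 an array) were left out and spots of a probe averaged. Of 41012 probes, 17541 had a RefSeq symbol and 23471 did not, and 24821 were kept, giving 21309 genes, of which 9602 had a symbol. The group means of all 8 arrays came from limma 3.58.1 under R 4.3.3 (lmFit, eBayes; 5 residual and 2.81 prior degrees of freedom), and p-values were adjusted over all genes. The 3 comparisons were IRI with non-IRI and each with in vitro. The number of arrays limits the precision. The fit was tested on simulated data.

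The genes, the gene lists (other lipid genes, cell type markers, cell cycle and housekeeping genes) and the rules were chosen with earlier results of these data known. Values on every array are given for genes that passed in some comparison. Of the other lipid genes up to 10 a comparison are named by adjusted p, and of each marker list up to 3 and Actb and Gapdh; small counts are also resolved by name. Some genes that the rule names are not reported here. Same-numbered IRI and non-IRI arrays deviated together from their group means (r = 0.188, 0.164 and 0.102 across genes for numbers 1 to 3). For arrays of different number r ran from -0.189 to 0.082, so the numbers in the labels may pair the arrays but this is not settled. The main fit used group means alone and ignored any such pairing, and a replicate block was an alternative. Other alternatives were scaling, background, filter, probe rule, weights, prior, the authors' table, the samples in the fit and leaving out each array.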

Additional observations from a re-analysis of the deposited data

Results flagged for a closer look

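In the 4 non-IRI arrays, the level of 2 synthesis genes on 1 array stood apart from the other 3. For Mvk, non-IRI 2 read 0.25 and the others 0.57 to 0.60, and the gap was 0.899 of the whole range, above the critical value of Dixon's test for 4 samples. For Nsdhl, non-IRI 4 read -1.53 and the others -1.06 to -0.98, and the gap was 0.85 of the range. Chance alone gives such a gap in about 1 of 20 groups, and 33 genes were examined. In both genes every non-IRI array stayed more than 2 log2 units below the cultured cells.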

How the results depend on the processing

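Every setting kept the direction of the called falls, while the number that passed and the size of some falls changed. Under normexp background correction (on the median signal of each spot, since no mean signal was in the files), 14 genes fell in IRI and 16 in non-IRI against in vitro, and 14 of the 28 called in IRI and 16 of the 29 called in non-IRI passed under every one of the 19 and 18 alternatives; for 10 and 9 of the others this setting alone ended the call. The cause was not tested. With background spots over 100 set to the array's median, chosen after seeing the data, 28 fell in both, and Ggps1 turned to -0.049 in non-IRI. Of all genes tested, 11.7% fell in IRI and 14.3% in non-IRI under that setting. The count of genes that rose in non-IRI was 0 rather than 1, Ggps1, under median scaling, quantile normalization, either normexp setting, no filter on dim probes, a trended prior and the replicate block. Between 2.01% and 17% of all genes tested rose in non-IRI under these settings. With array weights, 2 genes rose in IRI against non-IRI and 2 against in vitro (Ggps1 and Insig2). The shares of all genes tested that rose were 3.55% and 19.1%. With the replicate block, 27 genes fell in each liver group against in vitro and 0 rose. Among all genes, 8.17% fell and 12.3% rose in IRI, and 9.87% fell and 14.2% rose in non-IRI. The block changed no call beyond those of Ebp, Scap, Elovl5 and Ggps1 given above. Without each liver array in turn, 26 to 28 genes fell in IRI, 27 to 29 in non-IRI, 0 to 1 rose in non-IRI, and 0 were called between the liver groups. In these fits 7.96% to 17.5% of all genes fell in IRI and 13.3% to 19.2% in non-IRI, and 14.9% to 17.4% rose in non-IRI. Between the liver groups 0.0985% to 0.404% rose and 1.21% to 2.85% fell. Scan times hold whole groups, so a block for them could not be fitted for IRI against non-IRI, and the first scan time alone was used for IRI against in vitro. Fads2, Acss2, Acaca and Elovl5 were not well above background on every array, which limits their folds, and the single in vitro array has no replicate check.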
